A study of Mus musculus with 16 samples.

Results

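The 3 libraries of heterozygous Dnmt1 N1580A knock-in cells were compared with 2 libraries of the same knock-in collected on day 0 of a priming time course, 5 of the 16 libraries of the series. They were chosen by their labels, and no measured value entered the choice. Each library marks the CpG sites at which the mutant DNMT1 had just acted, and the question was which genes and 100 kb windows carried a larger or smaller part of these marks in the triplicate than on day 0. A further question was which of the differences recurred on days 2, 4 and 8 of priming.

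All 5 libraries came from E14TG2a, a line of mouse embryonic stem cells, and all carried 1 wild-type and 1 N1580A copy of Dnmt1. All received 1 mM Ado-6-azide, a cofactor analogue that carries an azide, by electroporation, and genomic DNA was taken 3 h later. The day 0 cells (2 libraries) were naive cells grown in serum with leukemia inhibitory factor and both kinase inhibitors, the GSK3 inhibitor CHIR99021 at 3 µM and the MEK inhibitor PD0325901 at 1 µM. The cells of days 2, 4 and 8 (2 libraries each) had been passaged without the inhibitors in serum with leukemia inhibitory factor. The labels of the heterozygous triplicate give the genotype but no day and no medium, so the culture state of those cells is not known here, and genotype is the same on both sides. Nothing in the labels says that the libraries of a group are separate cultures, or how many clones of the knock-in were used. No p-value therefore measures a spread between cultures or clones, and those for genes and windows rest mostly on the counting noise of marked positions.

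DNMT1 is the maintenance methyltransferase: it copies CpG methylation onto the new strand after replication, guided by UHRF1 to hemimethylated sites. The N1580A change lets the enzyme use the bulky azide cofactor, and the azide left on the cytosine is coupled to a biotinylated oligonucleotide from which sequencing is primed. Naive cells grown with both inhibitors hold little DNA methylation, and methylation rises as they leave that state.

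The heterozygous libraries listed 1612851, 3362003 and 2595676 autosomal CpG positions, and the day 0 libraries listed 383292 and 399896. Reads per listed position were 11.7, 7.37 and 8.28 in the heterozygous libraries and 10.8 and 12 on day 0. Every library was therefore thinned at random to 383292 positions, which kept 23.8%, 11.4% and 14.8% of the heterozygous positions. All counts below are distinct thinned positions, so they describe where the marks lay and not how many a cell carried. After thinning, heterozygous pairs shared 2.75% to 2.85% of their positions and differed by no more than sampling (chi-square per window 0.977 to 0.990), while the day 0 pair shared 4.98% (1.06). Positions also listed in wild-type cells, which lack the mutant enzyme, numbered 577 to 581 in the heterozygous libraries and 604 and 705 on day 0.

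Promoter sequences of 4 genes that figure in the results are shown first, since they let a reader see which CpGs were listed. Each is the 250 bases before an annotated start in RefSeq on GRCm38.p6, 5′ to 3′ on the gene's strand. Capitals mark CpGs listed in any heterozygous or day 0 library before thinning. The Aff1 promoter (plus strand, chr5:103753912-103754161) lies in the window with the smallest p among those that rose. It holds 35 CpGs, none listed. The Cacna1c promoter shown (minus strand, chr6:119108496-119108745) belongs to a gene whose body was lower. It holds 48 CpGs, none listed. Other annotated Cacna1c promoters, with 5 and 2 CpGs, had 1 listed each, in a heterozygous library. The Tenm3 promoter (minus strand, chr8:48674691-48674940) holds few CpGs, of which 6 of 8 were listed, 5 in the heterozygous libraries and 1 on day 0. The Tmem267 promoter shown (plus strand, chr13:119488223-119488472) is a CpG-dense exception, with 15 of 39 CpGs listed in the heterozygous libraries and 5 on day 0. By library, 1, 11 and 10 were listed against 2 and 3 on day 0 (Tenm3: 3, 3 and 2 against 0 and 1). These counts precede thinning, and the heterozygous libraries listed many more positions, so they do not compare the groups. Another Tmem267 promoter, with 17 CpGs, had 1 listed, on day 0.
Aff1: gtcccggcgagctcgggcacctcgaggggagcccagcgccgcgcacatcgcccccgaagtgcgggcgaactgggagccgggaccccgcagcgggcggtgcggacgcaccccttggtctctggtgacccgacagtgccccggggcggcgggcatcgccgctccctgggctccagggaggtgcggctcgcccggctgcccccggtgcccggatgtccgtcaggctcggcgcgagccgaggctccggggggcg
Cacna1c: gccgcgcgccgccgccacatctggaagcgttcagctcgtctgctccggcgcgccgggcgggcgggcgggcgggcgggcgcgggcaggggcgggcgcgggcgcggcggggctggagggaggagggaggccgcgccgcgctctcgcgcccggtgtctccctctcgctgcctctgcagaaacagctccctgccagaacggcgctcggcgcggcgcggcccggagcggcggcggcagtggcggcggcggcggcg
Tenm3: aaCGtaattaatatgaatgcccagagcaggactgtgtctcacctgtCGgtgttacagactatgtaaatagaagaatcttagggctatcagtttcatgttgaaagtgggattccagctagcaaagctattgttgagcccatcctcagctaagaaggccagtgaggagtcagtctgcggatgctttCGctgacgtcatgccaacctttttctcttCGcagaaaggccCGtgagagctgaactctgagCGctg
Tmem267: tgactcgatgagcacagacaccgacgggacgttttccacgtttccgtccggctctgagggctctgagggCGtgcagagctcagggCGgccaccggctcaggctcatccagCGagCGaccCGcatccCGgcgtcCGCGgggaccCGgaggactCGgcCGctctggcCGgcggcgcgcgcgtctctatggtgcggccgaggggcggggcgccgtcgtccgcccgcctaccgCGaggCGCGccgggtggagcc

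Marked positions avoided CpG-dense promoters in both groups, and promoters with few CpGs were listed more often in the triplicate. In the 11408 promoters with 1 to 4 CpGs, the heterozygous libraries listed 20.2, 20.7 and 20.7 thinned positions per 1000 CpGs, and the day 0 libraries listed 18.2 and 17.4. In promoters with 5 to 9 CpGs the levels were 14.5, 14.2 and 14.1 against 12.1 and 10.8. Heterozygous libraries lay above day 0 in both classes without overlap. In the 6247 promoters with 10 to 19 CpGs the groups overlapped, with 2.00, 2.18 and 2.29 against 2.61 and 1.61. In the 5787 promoters with 20 or more CpGs, the heterozygous libraries listed 20, 34 and 34 of 144751 CpGs. Day 0 replicate 1 listed 147 there and replicate 2 listed 48, so the day 0 libraries lay above the triplicate but differed widely from each other. Both day 8 libraries listed 24. Of all thinned positions, 0.396%, 0.393% and 0.397% fell in promoters in the triplicate against 0.402% and 0.321% on day 0, and the groups overlapped (two-sided exact permutation p = 0.8).

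Protein-coding gene bodies held a slightly larger share of the marks in the triplicate, and sequence outside genes a smaller one. Protein-coding bodies held 51.5%, 51.9% and 52.3% of positions in the triplicate and 50.4% and 50.4% on day 0, a mean of 51.9% ± 0.396 (SD, n = 3) against 50.4% ± 0.032 (SD, n = 2). Sequence outside genes held 41.1%, 40.8% and 40.3% against 42.1% and 42.1%. The 1000 bases on either side of gene ends held 3.86%, 3.89% and 3.94% against 3.59% and 3.26%. None of these 3 measures overlapped between groups. The exact permutation p was 0.2 for each, the smallest that 3 against 2 libraries allow, and 0.25 after adjustment over 5 measures. Protein-coding bodies held 51.8% ± 0.381 (SD, n = 2) on day 8.

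Gene bodies differed in both directions. Those called higher in the triplicate included long neuronal genes such as Nrxn3, Dlg2 and Foxp2 and the protocadherin cluster. Those called lower included Wwox, Ttn, Sfi1 and the zinc finger gene Zfp982, and also the long genes Cacna1c, Tenm4 and Sox5. Of 33069 autosomal RefSeq genes, 7940 passed the filter on low counts. edgeR's quasi-likelihood test with Benjamini-Hochberg adjustment called 239 higher (3.01% of those tested) and 230 lower (2.9%). The median log2 difference was 1.10 among the genes called higher, -0.82 among those called lower and -0.01 over all tested. The heterozygous libraries lay wholly above or below both day 0 libraries for 236 of the 239 and 228 of the 230, against 17.3% and 14.1% of all genes tested. Of the genes called, 222 higher and 189 lower were protein-coding, and the rest were lncRNA genes. Overlapping models make the calls fewer loci: 216 higher and 224 lower.

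The number of calls rested on the day 0 libraries and on the tool. Without day 0 replicate 1 the test called 80 genes higher and 139 lower, and without replicate 2 it called 62 and 79. Leaving out heterozygous replicate 2 left 168 and 133. DESeq2 called 29 higher and 31 lower. Other random draws of positions called 288 and 296 of the 469 genes again in the same direction. Of the 20 genes named below by smallest p, 18 were called under all 17 alternatives, Desi2 under all 16 in which it was tested and Aff1 under 16. These 20 were taken only where the groups did not overlap, so their lack of overlap is no result.

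**Figure D1:**
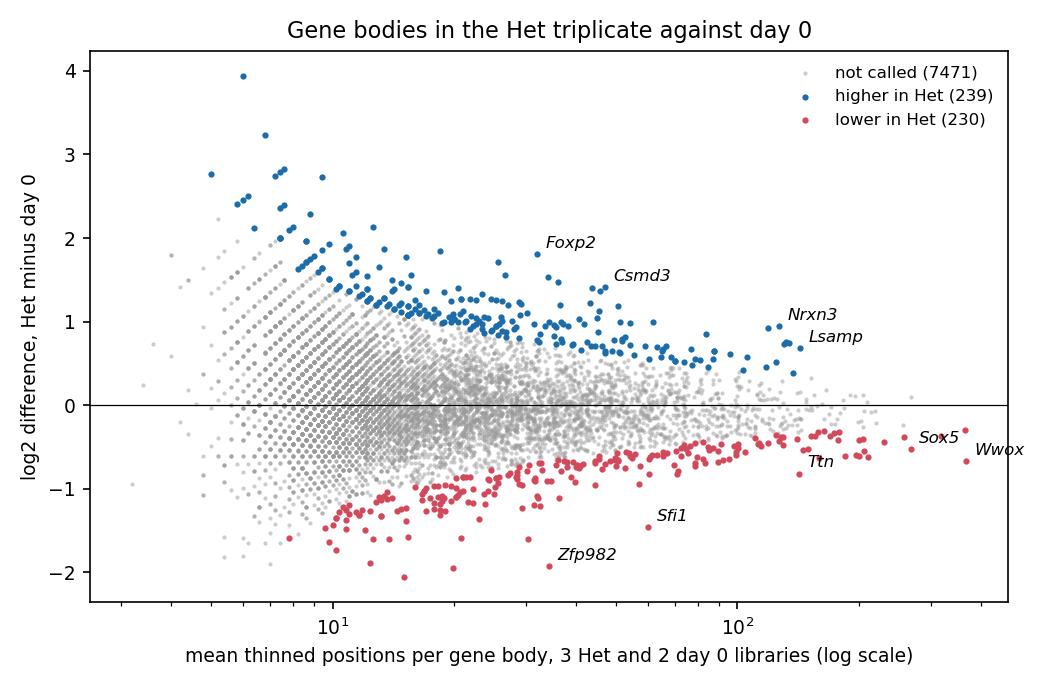
Each point is a gene body: the x axis is its mean number of thinned positions over the 5 libraries (log scale) and the y axis the log2 difference, heterozygous minus day 0. Blue points are the 239 genes called higher, red points the 230 called lower and grey points those not called; the lower calls reach to the right, where genes hold the most positions.

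Among genes that were higher, the smallest adjusted p-value belonged to Nrxn3, a presynaptic neurexin (chr12:88722701-90334935). It held 169, 145 and 161 positions in the triplicate and 70 and 90 on day 0, a log2 difference of 0.95 ± 0.13 (SE; edgeR adjusted p = 1.13e-10). Dlg2, a postsynaptic scaffold (chr7:90476188-92449246), held 169, 142 and 133 against 74 and 78 (0.93 ± 0.13; edgeR adjusted p = 1.39e-09). For both genes each heterozygous library lay far above both day 0 libraries. Foxp2, a forkhead transcription factor of neural development (chr6:14901349-15441977), held 45, 41 and 49 against 11 and 14, 3.49-fold more on average (1.80 ± 0.28; edgeR adjusted p = 8.12e-08). Csmd3, a giant transmembrane protein with CUB and sushi domains (chr15:47580638-48792558), held 71, 67 and 51 against 22 and 24 (1.41 ± 0.22; edgeR adjusted p = 1.08e-07). These 4 bodies exceed 500 kb and were sparsely marked: per 100 kb, Foxp2 held 8.32 positions in the triplicate and 2.31 on day 0, and Csmd3 held 5.2 and 1.9. Each of the 4 was called under all 17 alternative settings.

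The clustered protocadherins, cell surface proteins that give neurons distinct identities, were another higher region. Gm37013, a gene model that spans the cluster (chr18:36952648-37841873), held 163, 169 and 151 positions in the triplicate and 103 and 84 on day 0 (0.75 ± 0.12; edgeR adjusted p = 2.47e-07). All 3 heterozygous libraries were high, with no overlap. Of 37 tested models that overlap it, 34 of them protocadherins, 20 were called higher and 0 lower. These models count the same positions many times over and make up 20 of the 27 genes called higher on that chromosome, so they are 1 region and not 20 results. On day 2 the same body held 102 and 81 positions.

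The remaining genes of the 10 with the smallest p-values were likewise taken only where the groups did not overlap. Mdga2, an adhesion protein that binds neuroligins, held 65, 51 and 60 positions against 26 and 17 (1.41 ± 0.23). Lsamp, an IgLON adhesion protein, held 155, 187 and 165 against 92 and 114 (0.68 ± 0.11). Kcnd2, a potassium channel subunit, held 36, 47 and 56 against 11 and 20 (1.54 ± 0.26). Nxn, nucleoredoxin, a redox regulator of Wnt signalling, held 53, 65 and 65 against 24 and 22 (1.37 ± 0.22). Each was called under all 17 alternatives. Nxn was the more densely marked, with 43.0 positions per 100 kb in the triplicate and 16.2 on day 0. Aff1, a scaffold of the super elongation complex (chr5:103692362-103855322), held 41, 61 and 44 against 26 and 8 (1.48 ± 0.25; edgeR adjusted p = 2.43e-06). Its day 0 libraries differed widely, and without replicate 2 the difference was 0.86 with an edgeR adjusted p of 0.098.

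Among genes called higher with a mean of at least 10 positions, the 5 with the largest log2 differences still held few positions. Lrrc36, a leucine-rich repeat gene, held 13, 21 and 21 positions against 5 and 3 (2.13 ± 0.45; edgeR adjusted p = 3.22e-04). Rftn2, a raftlin of lipid rafts, held 15, 14 and 17 against 4 and 3, and Srgn, the proteoglycan serglycin, held 17, 15 and 14 against 4 and 4. Prr16 and the lncRNA Gm26510 completed the 5, with log2 differences of 1.90 and 1.87. All heterozygous libraries were above both day 0 libraries in the 5 genes. Srgn also lost its call when positions were drawn in proportion to their reads (edgeR adjusted p = 0.0988). Without day 0 replicate 2 all 5 lost their call, with edgeR adjusted p-values of 0.0638 (Lrrc36) to 0.143 (Gm26510).

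Among genes that were lower, Wwox, an oxidoreductase gene at a common fragile site (chr8:114439635-115352712), had the smallest p-value of all. It held 294, 303 and 307 positions in the triplicate and 449 and 486 on day 0 (-0.67 ± 0.06; edgeR adjusted p = 3.3e-19). Ttn, which encodes the muscle protein titin (chr2:76703980-76982557), held 118, 101 and 112 against 178 and 202 (-0.82 ± 0.11; edgeR adjusted p = 1.13e-10). The triplicate was lower than day 0 in every library of both genes. Cacna1c, an L-type calcium channel (chr6:118587240-119197384), held 175, 139 and 181 against 247 and 240 (-0.60 ± 0.09; edgeR adjusted p = 7.57e-08). Prkce, a protein kinase C, held 180, 171 and 175 against 252 and 275, and Sox5, a SoxD transcription factor, held 254, 227 and 210 against 321 and 326. Foxp1, a relative of Foxp2, held 181, 180 and 140 against 244 and 251 (-0.60 ± 0.09; edgeR adjusted p = 4.24e-08). Foxp1 and Foxp2 thus differed from day 0 in opposite directions. On day 0 Foxp1 held 41.4 positions per 100 kb and Foxp2 held 2.31, against 28 and 8.32 in the triplicate.

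Some smaller genes among those called lower differed by larger factors, but genes with few positions could be called only at large differences. Over all tested genes with a mean under 20 positions, the median log2 difference was 0.03. Zfp982, a zinc finger gene of a cluster on chromosome 4, held 19, 15 and 15 positions against 48 and 74, 3.80-fold fewer (-1.93 ± 0.23; edgeR adjusted p = 5.79e-13). Desi2, a desumoylating peptidase, held 11, 9 and 8 against 35 and 36 (-1.95 ± 0.30). Ankmy2, an ankyrin and MYND domain gene, held 5, 10 and 5 against 29 and 26 (-2.06 ± 0.34; edgeR adjusted p = 9.34e-07). Klhl25, a substrate adaptor of a ubiquitin ligase, held 5, 8 and 5 against 25 and 19. No heterozygous library reached day 0 in these 4 genes. The Tmem267 body (chr13:119488086-119610459), whose promoter is shown above, held 19, 14 and 18 against 42 and 59 (-1.60 ± 0.24; edgeR adjusted p = 3.44e-08). Sfi1, a centrosome protein (chr11:3131850-3203347), held 41, 35 and 32 against 101 and 92 (-1.45 ± 0.17; edgeR adjusted p = 2.28e-13). When positions were drawn in proportion to their reads the differences were smaller, -0.47 for Sfi1 (edgeR adjusted p = 0.0257), -1.04 for Tmem267 and -1.31 for Desi2. Counted in reads, they were -0.76 for Sfi1 and -0.84 for Tmem267. Sfi1, Tmem267 and the lncRNA Gm40904 are the 3 called genes in which a heterozygous library listed over 50% of all positions seen in any library before thinning (61.7%, 53.8% and 52.7%), and 0 genes called higher passed that limit. Among the 10 lower genes with the smallest p-values, each was called under every alternative in which it was tested.

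**Figure D2:**
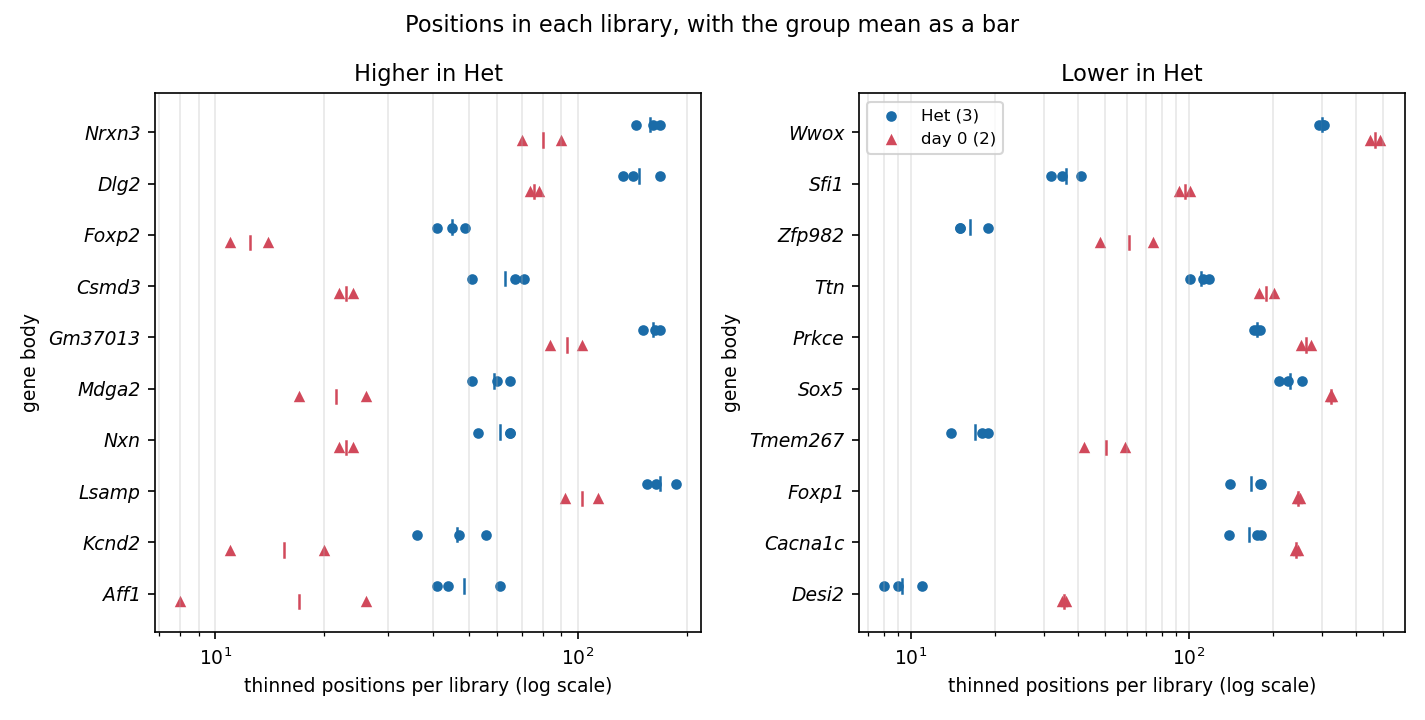
Thinned positions (log axis) of the 10 genes with the smallest adjusted p-values in each direction, one row per gene, with circles for the 3 heterozygous libraries, triangles for the 2 day 0 libraries and bars for group means. The 2 kinds of symbol do not overlap in the 20 genes because genes with overlap were not taken. The distance is widest for Foxp2 among the higher genes and for Desi2 and Zfp982 among the lower ones.

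Calls were more frequent among long and strongly marked genes than among all genes. Genes over 500 kb held a median of 87.4 positions, against 14.4 over all tested. More positions let smaller differences be called, so these frequencies alone show no trait of long genes. Of 219 tested genes over 500 kb, 45 (20.5%) were called higher and 24 (11%) lower, with a median log2 difference of 0.15. Of 715 genes with a mean of 50 or more positions, 43 (6.01%) were higher and 89 (12.4%) lower, with a median of -0.10. Of 5155 genes with under 20 positions, 107 (2.08%) were higher and 62 (1.2%) lower.

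A list of 44 long genes, most of them for cell adhesion and synapses, had 15 called higher (34.1%) and 5 lower (11.4%), with a median log2 difference of 0.39, beside 3.01% and 2.9% of all genes. The listed genes held a median of 98.7 positions, so smaller differences could be called in them than over all genes. DESeq2 called 12 of the 44. The list was assembled with earlier results of these data known, so its direction is a description. Besides Nrxn3, Dlg2, Csmd3 and Lsamp, the higher members included Dpp10, an auxiliary subunit of Kv4 channels, with 74, 83 and 76 positions against 39 and 37 (0.99 ± 0.18; edgeR adjusted p = 1.67e-05). Cadm2, a synaptic adhesion molecule, held 65, 62 and 70 against 19 and 37 (1.19 ± 0.21), and Cntnap2, a neurexin relative, held 122, 139 and 107 against 83 and 77 (0.58 ± 0.13). Cadm2 lost its call without day 0 replicate 1 (edgeR adjusted p = 0.0555), and Cntnap2 without replicate 2 (edgeR adjusted p = 0.0844). The lower members were Wwox, which is not an adhesion gene, the teneurins Tenm4 and Tenm3, Cdh13 and Csmd2. Tenm4 held 160, 151 and 152 against 224 and 236 (-0.61 ± 0.09; edgeR adjusted p = 8.77e-08), and Tenm3, whose promoter is shown above, held 273, 277 and 318 against 362 and 365 (-0.36 ± 0.07; edgeR adjusted p = 1.01e-04). Outside the list, 30 of 177 genes over 500 kb (16.9%) were called higher and 19 (10.7%) lower.

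Genes of the pathways that the inhibitors act on, the FGF, MAPK, GSK3 and Wnt genes, had 4 of 24 tested members higher and 0 lower, with a median of 0.21, beside 3.01% higher and 2.9% lower over all genes. DESeq2 called 0 of 25 members. Grb2, the adaptor that links receptor tyrosine kinases to RAS, held 15, 15 and 27 positions against 4 and 10 (1.39 ± 0.39; edgeR adjusted p = 0.0125). Spred2, a RAS pathway inhibitor, held 33, 22 and 40 against 17 and 15 (edgeR adjusted p = 0.0225), and Frs2, an FGF receptor adaptor, held 21, 32 and 23 against 11 and 13 (edgeR adjusted p = 0.0264). Tcf7l1, the HMG-box repressor of the Wnt pathway and the single formative gene called, held 65, 61 and 63 against 36 and 35 (0.79 ± 0.20; edgeR adjusted p = 0.0036). The groups did not overlap in these 4 genes. Among other settings, Grb2 lost its call without day 0 replicate 1 or without heterozygous replicate 3 (edgeR adjusted p = 0.161 for the latter). The other 3 lost theirs without either day 0 library. Grb2 kept its call in 8 of 16 alternatives, Frs2 in 6 of 16, Spred2 in 10 of 17 and Tcf7l1 in 14 of 17.

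Among genes of the methylation machinery, 1 of 11 tested members was called higher, beside 3.01% of all genes, and DESeq2 called 0. Uhrf1, which brings DNMT1 to hemimethylated sites, was higher, with 9, 15 and 12 positions against 4 and 3 (1.71 ± 0.57; edgeR adjusted p = 0.047), and it kept the call in 2 of the 10 alternatives in which it was tested. Dnmt1 itself held 26, 31 and 30 against 23 and 25 (0.24 ± 0.26; edgeR adjusted p = 0.66). Of 7 tested naive pluripotency genes edgeR and DESeq2 called 0, with 2 higher at an unadjusted p under 0.05 and a median of 0.24. Esrrb, an orphan nuclear receptor of the naive network, held 60, 46 and 53 against 35 and 36 (0.54; edgeR adjusted p = 0.0899). Of 7 Hox and Polycomb target genes tested both tools called 0, with 0 at an unadjusted p under 0.05. Olfactory and vomeronasal receptor genes, 1104 and 354 in number, gave 1 tested gene each and none called.

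Of 26 tested imprinted genes edgeR called 4 lower and none higher, with a median of 0.07, beside 2.9% lower over all genes. DESeq2 called 0 of 26, and of 6 members at an unadjusted p under 0.05 in edgeR 2 were higher. Rtl1, a retrotransposon-derived paternally expressed gene, held 14, 4 and 19 positions against 27 and 31 (-1.26 ± 0.30; edgeR adjusted p = 0.00182). Peg3, a paternally expressed zinc finger gene, held 7, 5 and 9 against 20 and 14, and Igf2r, the maternally expressed receptor that clears IGF2, held 32, 25 and 32 against 48 and 43. Trappc9, a trafficking gene of the Peg13 domain, held 152, 141 and 130 against 179 and 175 (-0.36 ± 0.10; edgeR adjusted p = 0.0161). The triplicate was lower than day 0 throughout, yet without day 0 replicate 2 the 4 lost their calls. Trappc9, Igf2r and Peg3 also lost theirs without day 0 replicate 1. Rtl1 kept its call in 11 of 16 alternatives, Trappc9 in 10 of 17, Peg3 in 10 of 16 and Igf2r in 4 of 17.

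In the list of endoderm and basement membrane genes, edgeR called 3 of 15 tested members lower and none higher, with a median of -0.08, beside 2.9% lower over all genes, and DESeq2 called 0 of 15. The 3 encode basement membrane chains, but other such genes of the list were not called: the laminin chain Lamc1 held 43, 30 and 34 positions against 22 and 26 (0.53; edgeR adjusted p = 0.196), and Col4a1, Lama5, Hspg2 and Nid1 had log2 differences of -0.17, -0.05, -0.03 and -0.08. Lama1, a laminin alpha chain, held 39, 42 and 45 against 69 and 69 (-0.75 ± 0.18; edgeR adjusted p = 0.00257). Col4a2, a collagen IV chain, held 52, 37 and 49 against 72 and 77 (-0.73 ± 0.17), and Lamb1 held 24, 14 and 20 against 37 and 32 (-0.87 ± 0.26). The groups did not overlap. Col4a2 lost its call without day 0 replicate 2 (edgeR adjusted p = 0.0723) and Lamb1 without either. The endothelial receptor Kdr, with 17, 12 and 18 positions against 24 and 23, and the endothelial cadherin Cdh5, with 12, 23 and 15 against 21 and 29, were not called (edgeR adjusted p = 0.22 and 0.2). Of 56 tested zinc finger genes, 4 were higher and 5 lower, beside 3.01% and 2.9% of all genes.

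Some short genes were unmarked on day 0 and fell below the filter, so they have no test. Trp53cor1, the p53-induced lincRNA-p21, held 8, 10 and 4 positions in the triplicate and 0 in both day 0 libraries. With day 0 set to 3 positions over both libraries, the triplicate mean was 4.89-fold higher. Neat1, the lncRNA of paraspeckles, held 10, 4 and 10 against 0 and 0, 5.33-fold more on the same terms. Cdkn1a, which encodes the cell cycle inhibitor p21, held 3, 5 and 3 against 0 and 0, and Prdm14, a naive pluripotency factor, held 3, 4 and 3 against 0 and 0. Every heterozygous library had positions in these 4 genes, but the share of all genes with the same pattern was not counted. The genes were taken from a list named in earlier results that used these same day 0 libraries. The fold values are therefore descriptions and no lower bounds.

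At the scale of 100 kb windows, calls of higher windows were more frequent where protein-coding genes were many. Calls of lower windows were more frequent where there were no protein-coding genes, although most windows of every class were not called. Of 24618 windows, 18166 were tested, and edgeR called 353 higher (1.94%) and 461 lower (2.54%). The median log2 difference was 1.09 and -1.03 among the called windows and 0.01 over all. Of the called windows, 347 higher and 455 lower had no overlap between groups, against 15.3% and 16.5% of all tested. Without day 0 replicate 1 the calls were 116 and 231, and without replicate 2 they were 78 and 160. Leaving out heterozygous replicate 2 left 200 and 284, leaving out replicate 3 left 180 and 270, and DESeq2 called 6 and 14.

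Calls followed the number of protein-coding genes in a window. Of 931 tested windows with 5 or more, 82 (8.81%) were higher and 5 (0.537%) lower, with a median log2 difference of 0.32. Of 4689 windows with none, 23 (0.491%) were higher and 181 (3.86%) lower, with a median of -0.11. Windows with 5 or more genes held 6.58%, 6.69% and 6.87% of all thinned positions in the triplicate and 5.61% and 5.31% on day 0. Windows with none held 23.8%, 23.4% and 23.0% against 24.6% and 24.9%. Neither pair of groups overlapped, and the exact permutation p was 0.2, the smallest possible. The medians on day 8 against day 0 were 0.30 and -0.10 in the same classes. By the part of a window in genes, only the middle classes did not overlap. Windows without any gene held 12.2%, 11.99% and 11.55% in the triplicate against 12.09% and 12.29% on day 0 (exact permutation p = 0.4). Those fully in genes held 16.62%, 16.54% and 16.46% against 16.44% and 16.72% (exact permutation p = 0.8). Those with 0 to 50% held 27.26%, 27.05% and 27.05% against 28.57% and 28.65%. Those with 50 to 100% held 43.92%, 44.42% and 44.93% against 42.89% and 42.34%.

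**Figure D3:**
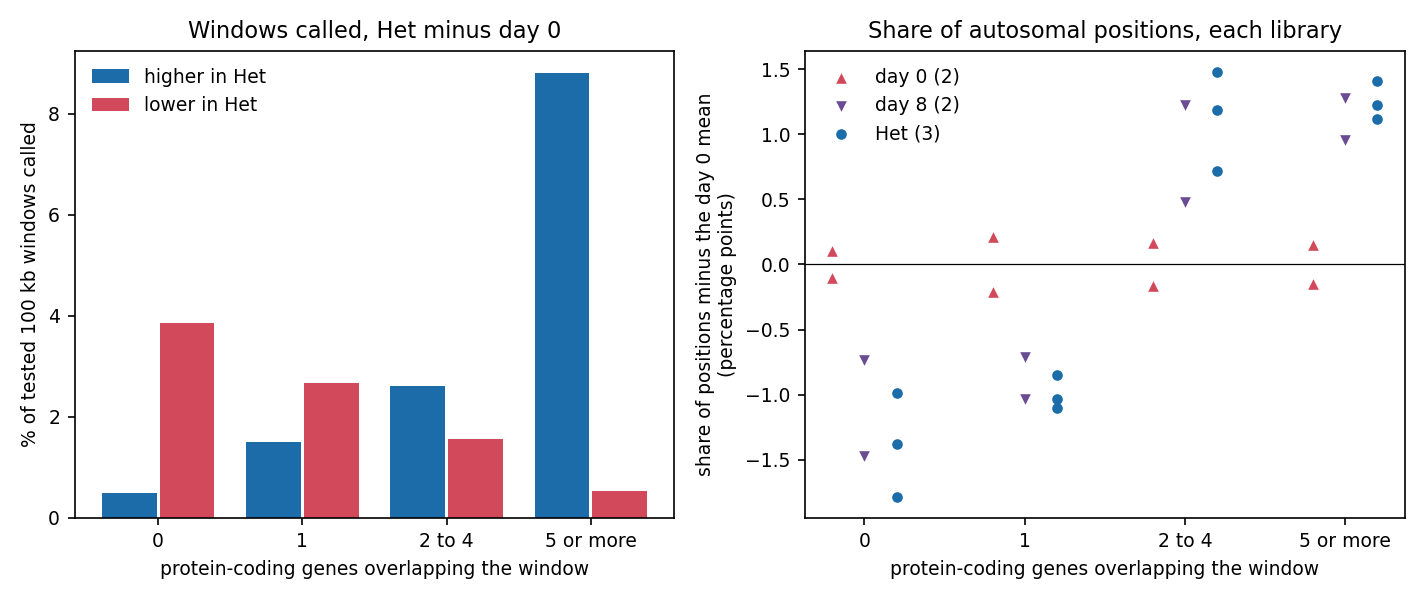
Left: percentage of tested 100 kb windows called higher or lower in the triplicate, by number of protein-coding genes in the window. Right: the share of thinned positions in each class minus the day 0 mean, in percentage points, for each day 0, day 8 and heterozygous library; heterozygous libraries lie above 0 in windows with 5 or more genes and below 0 in windows with none.

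The window with the smallest p among those that rose covered the middle of Aff1 and the promoter shown above (chr5:103700001-103800000). It held 27, 32 and 23 positions in the triplicate and 5 and 1 on day 0, 8.83-fold more (3.14 ± 0.44; edgeR adjusted p = 1.47e-09), and was called under all 17 alternatives. A window within Dst, a cytoskeletal linker gene (chr1:34000001-34100000), held 27, 26 and 31 against 7 and 5 (2.21 ± 0.37). A window with Stk38, the splicing factor gene Srsf3 and Cdkn1a (chr17:29000001-29100000) held 21, 30 and 22 against 6 and 4 (2.26 ± 0.40). The triplicate was high in all 3 windows with no overlap.

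Among windows that fell, chr10:83400001-83500000, where 12.6% of the sequence lies in genes, held 25, 30 and 40 positions against 95 and 118 (-1.74 ± 0.17; edgeR adjusted p = 5.42e-19). The window at the start of the Ttn interval (chr2:76700001-76800000) held 54, 46 and 57 against 129 and 130 (-1.30 ± 0.15). A window without genes (chr2:98600001-98700000) held 21, 11 and 10 against 63 and 65 (-2.18 ± 0.24). The triplicate was low in each. The last window also held 26 positions seen in wild-type libraries, and its difference was -0.39 (edgeR adjusted p = 0.167) when positions were drawn in proportion to their reads.

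Adjacent called windows formed runs of at most 3. A higher run on chromosome 2 (chr2:168000001-168300000), which includes the chromatin gene Adnp, held 94, 111 and 125 positions against 57 and 61. A higher run on chromosome 10 (chr10:81300001-81600000) with 20 protein-coding genes, among them the transcription factor gene Nfic and the corepressor gene Tle2, held 147, 114 and 143 against 77 and 64. A lower run on chromosome 5 (chr5:104700001-105000000), with Zfp951 and Abcg3, held 42, 38 and 41 against 114 and 123. All heterozygous libraries lay on one side of day 0 in these runs. By chromosome, the shares did not overlap between groups on 15 of 19 autosomes, 7 higher and 8 lower in the triplicate. As examples, chromosome 11, which is gene-rich, took 6.25%, 6.30% and 6.38% of positions against 5.85% and 5.76%, and 13 took 4.77%, 4.69% and 4.71% against 5.05% and 5.08% (exact permutation p adjusted over 19 chromosomes, 0.253).

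The differences recurred on the later days, most often on days 4 and 8. All of these comparisons use the same 2 day 0 libraries, so the counts are no independent support. Of the 239 genes called higher, 41 (17.2%) were also called higher on day 2, 94 (39.3%) at day 4 and 119 (49.8%) at day 8, whereas 90 were called at none of these times. Of the 230 called lower, 40 (17.4%) were also called lower on day 2, 107 (46.5%) at day 4 and 117 (50.9%) at day 8, and 82 at no later time. The 236 repeats on day 8 in both directions fell to 109 without day 0 replicate 1, 70 without day 0 replicate 2 and 19 with DESeq2. Over all genes tested, the comparison with day 0 called 0.693% higher and 0.617% lower on day 2, 1.93% and 2.08% on day 4, and 2.27% and 2.41% on day 8. Of the windows called higher, 27 (7.65%), 144 (40.8%) and 115 (32.6%) were called again on days 2, 4 and 8, and of those called lower, 85 (18.4%), 190 (41.2%) and 199 (43.2%). The 314 window repeats on day 8 fell to 136 and 106 without day 0 replicate 1 and 2, to 209 and 208 without heterozygous replicate 2 and 3, and to 7 with DESeq2. Over all windows tested, 0.237% were called higher and 0.617% lower on day 2, 1.55% and 1.84% on day 4, and 1.27% and 1.97% on day 8.

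Side by side, the median log2 difference from day 0 of the genes called higher was 1.10 in the triplicate, 0.73 on day 2, 0.91 on day 4 and 0.96 on day 8. For the genes called lower the medians were -0.82, -0.54, -0.64 and -0.69. The first value of each row chose the genes, so a smaller value on the other days is no comparison. Foxp2 differed from day 0 by 1.35, 1.57 and 1.72 on days 2, 4 and 8, and Sfi1 by -0.83, -1.61 and -1.71. The protocadherin model Gm37013 differed by -0.05 on day 2, 0.32 on day 4 and 0.54 on day 8, against 0.75 in the triplicate.

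**Figure D4:**
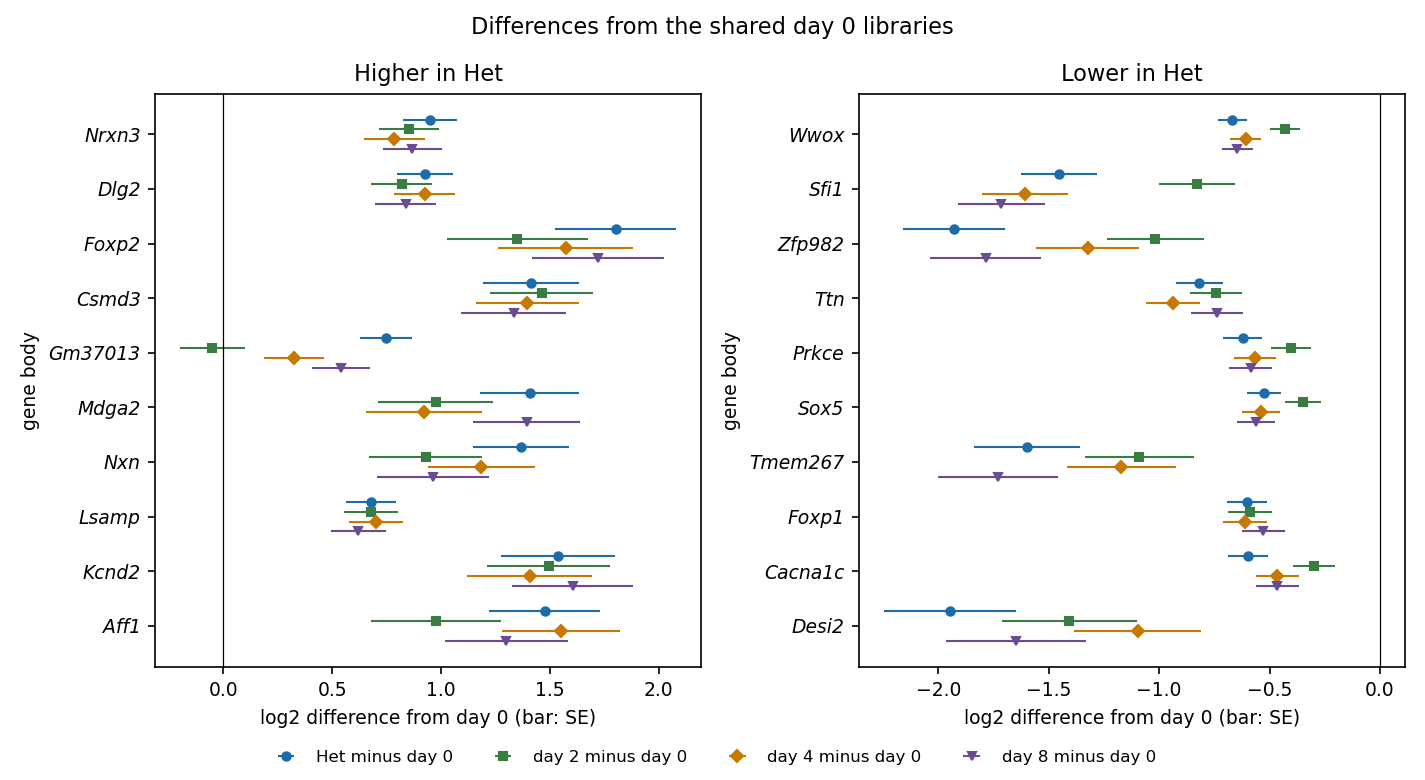
Log2 difference from day 0 (x axis, with SE) for the 20 genes taken by smallest adjusted p-value without overlap. Values are shown for the triplicate and for days 2, 4 and 8, all against the same 2 day 0 libraries. Differences keep one sign in every gene apart from Gm37013, which lies at -0.05 on day 2.

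Set directly against day 8, with no day 0 library in the contrast, the triplicate gave no called gene or window in edgeR or DESeq2. At an unadjusted p under 0.05 edgeR counted 385 genes (4.85%) and 815 windows (4.49%), and DESeq2 50 and 98. Within the 239 genes called higher, the difference of triplicate minus day 8 had a median of 0.10 and ran from -0.58 to 1.96, with a smallest adjusted p of 0.429. Within the 230 called lower it had a median of -0.09 and ran from -0.90 to 0.88. A missed threshold does not show that the 2 groups are alike. Against day 2, edgeR called 5 genes (0.063%) and 1 window (0.0055%), all higher in the triplicate: Jarid2, Zfhx2 and 3 overlapping models of the protocadherin cluster, Gm37013, Gm38666 and Gm38667. They were named after their values were seen. The same comparison called 3 genes and 0 windows with DESeq2 (97 and 187 at an unadjusted p under 0.05), 68 and 42 without thinning and 1 and 1 with reads.

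**Figure D5:**
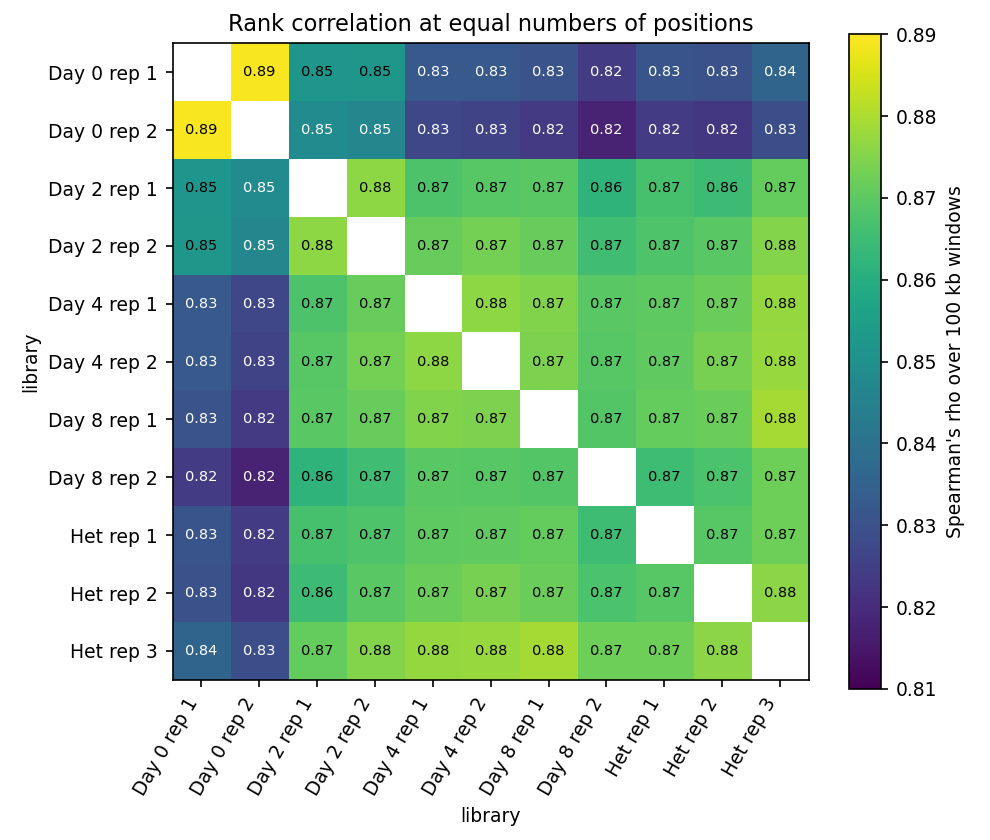
Spearman correlation between libraries of thinned positions per 100 kb window (24618 windows), as a heat map of the 11 libraries of the triplicate and days 0, 2, 4 and 8. Heterozygous libraries correlate at 0.869 to 0.876 with each other, 0.865 to 0.879 with day 8 and 0.823 to 0.836 with day 0, while the day 0 pair correlates at 0.889.

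Over windows, which share gene content and CpG number and are no replicates, heterozygous libraries correlated at 0.869 to 0.876 with each other, at 0.865 to 0.875 with day 2, at 0.865 to 0.879 with day 8 and at 0.823 to 0.836 with day 0 (Spearman). Day 0 correlated at 0.818 to 0.831 with day 8. Day 0 thus stood apart from the triplicate about as far as from day 8, as a description of these libraries.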

How the data were processed

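The authors deposited a table for each library that lists positions with their coverage, a raw count of reads that is whole and at least 1, as the values show. The listed positions match the C of a CpG in RefSeq promoters. The submitters' processing notes name cutadapt 4.4, BWA 0.7.17-r1188, SAMtools 1.12 and mm10, with no settings given. Reads carry no molecular identifiers, so distinct positions were counted and reads were an alternative. Autosomal positions of each library were thinned to the smallest day 0 number with a fixed seed and summed per RefSeq gene (GRCm38.p6, without strand or exons, so overlapping genes are not told apart) and 100 kb window. edgeR 4.0.16 (R 4.3.3; filterByExpr, TMM, glmQLFit, glmQLFTest) was fitted over 11 libraries of 5 groups, with Benjamini-Hochberg adjusted p under 0.05. Common biological coefficients of variation were 0.0158 for genes and 0.0212 for windows. The spread was pooled over groups and almost wholly over features, so edgeR p-values on positions measure mostly the counting noise of positions. With reads in place of positions the coefficients were 0.444 and 0.200. Standard errors are the log2 difference divided by the square root of F. Two-sided exact permutation tests compared shares (Python 3.11.15, scipy 1.17.1). Libraries of a number did not deviate together across groups (correlations of at most 0.011 in size), so numbers were not used as pairs.

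Members and gene lists were chosen with earlier results of these data known. Named genes were, for each direction, the 10 smallest adjusted p without overlap between groups (1 per overlapping locus), the 5 largest differences with a mean of at least 10 positions, up to 2 called members of each list and a list named earlier, and for windows the 5 smallest adjusted p and the 3 longest runs; examples of these are given. Other list members are named as examples. Alternatives were other random draws, no thinning, reads, positions with at least 2 reads, no filter, scaling by library totals, DESeq2 1.42.0, a replicate block, the 5 libraries alone, 250 kb windows, each library left out and, chosen after seeing the data, positions drawn by reads and positions absent from wild-type libraries.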

Additional observations from a re-analysis of the deposited data

Results flagged for a closer look

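A set of 6 results differed between the triplicate and day 2 when both are set against day 0, by edgeR's test of that difference. Jarid2, a Polycomb cofactor gene (chr13:44730774-44921643), held 35, 32 and 39 positions in the triplicate, 21 and 15 on day 0 and 13 and 15 on day 2, so that the log2 difference of triplicate minus day 2 was 1.31 ± 0.28 (edgeR adjusted p = 0.00862). It held 40 and 30 on day 4 and 28 and 37 on day 8. Zfhx2, a zinc finger homeobox gene (chr14:55060268-55092381), held 16, 16 and 17 in the triplicate, 3 and 9 on day 0 and 3 and 4 on day 2, a difference of 2.17 ± 0.48 (edgeR adjusted p = 0.0131). The protocadherin models Gm37013, Gm38666 and Gm38667 differed from day 2 by 0.80 ± 0.12, 0.79 ± 0.12 and 0.81 ± 0.12 and count mostly the same positions. A window without protein-coding genes (chr17:39800001-39900000) held 124, 74 and 85 positions in the triplicate, 158 and 77 on day 0 and 47 and 59 on day 2. The difference from day 2 was 0.84 ± 0.16 (edgeR adjusted p = 0.00525), while the window's difference from day 0 was not called (-0.31, edgeR adjusted p = 0.172). Its day 0 libraries lay far apart, and heterozygous replicate 1 lay above the other two.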

How the results depend on the processing

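Every alternative tried kept the sign of each difference in share, and none of the 72 genes and 10 windows followed through the alternatives reversed. Among all called features, the gene Ash1l (0.84 as reported, -0.07 with reads) and 1 window on chromosome 16 (-0.90 as reported, 0.00 without positions of wild-type libraries) changed sign. The balance of gene calls turned, from 239 higher and 230 lower to 226 and 248 in the second random draw. Counting reads moved the median log2 difference of all genes to 0.22. Without thinning, 449 genes were higher, 517 lower and 756 repeated on day 8, with 919, 1540 and 2005 windows, and with reads in place of positions the numbers were 2962, 1150 and 2780 genes and 2519, 2664 and 3581 windows. DESeq2 gave 29, 31 and 19 genes and 6, 14 and 7 windows, against 239, 230 and 236 genes and 353, 461 and 314 windows as reported; the cause was not tested. Without a filter on low counts 124 genes were higher and 122 repeated on day 8, and 535 windows of 250 kb were higher. With the replicate number as a block, 179 windows were higher, 265 lower and 203 repeated, and 169 genes were higher and 184 lower. The numbers do not pair these libraries, and for the triplicate they follow the titles, while the file names carry other numbers. Leaving out 1 library gave 62 to 169 genes higher, 79 to 191 lower and 70 to 198 repeated, and 78 to 255 windows higher, 160 to 317 lower and 106 to 240 repeated, always lowest without day 0 replicate 2. Differences in share ran from 1.31 to 1.70 percentage points for protein-coding bodies, 0.303 to 0.635 near gene ends and -1.53 to -1.10 outside genes. Over 72 genes, 954 of 1194 values stayed on the same side of the threshold, 222 lost the call and 18 gained one, and over 10 windows 169 of 170 stayed. With 2 day 0 libraries and a depth of 383292 positions, genes with few positions could be called only at large differences.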

Other observations

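Among list members not described above, the zinc finger gene Zfp710 held 27, 27 and 27 positions in the triplicate and 13 and 13 on day 0 (1.01 ± 0.31; edgeR adjusted p = 0.0245), and Zfp106 held 23, 12 and 11 against 6 and 4 (1.56 ± 0.46; edgeR adjusted p = 0.0192). In the opposite direction Zfp936 held 15, 8 and 12 against 33 and 36 (-1.59 ± 0.29; edgeR adjusted p = 8.95e-06). Zfp710 and Zfp106 lost their calls without either day 0 library, and Zfp936 kept its call under all 16 alternatives in which it was tested. Counted in reads, Zfp106 differed by 0.49 (edgeR adjusted p = 0.312). Tdrd1, a Tudor domain gene of the germline, was the 1 of 8 tested germline genes that was called (beside 2.9% lower over all genes), lower with 13, 13 and 17 positions against 29 and 26 (-0.97 ± 0.29; edgeR adjusted p = 0.0225), and it lost the call without either day 0 library. Of 8 tested ectoderm and neural genes, Nrxn3 and Dlg2 were called higher and none lower, beside 3.01% higher over all genes. Elavl3, a neuronal RNA-binding protein, held 9, 14 and 13 against 5 and 6 and was not called (edgeR adjusted p = 0.156). Housekeeping and cytosolic ribosomal protein genes are short, and 1 of 34 and 0 of 79 were tested. Summed over the 79 ribosomal protein genes, the heterozygous libraries held 32, 53 and 36 positions and the day 0 libraries 12 and 6.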
